A study of Mus musculus with 10 samples.

Results

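Among mouse splenic germinal center B cells, 6 genes were examined because their read counts were much higher in the fraction labelled CC than in the fraction labelled CB: Ebi3, Trabd2b, Ppfia4, Shank1, Plscr1 and Lmo2. They were picked by symbol from a table of 55421 genes for a strong difference between CB and CC that did not follow the transcripts of macrophages. No numeric threshold was given for that choice, so there are no genes just inside or just outside one. All 6 were among the 16596 genes that passed the filter on low counts and were tested. Because the levels in CB and CC chose the genes, those levels are described here without a test. The comparison of genotypes did not choose them and was tested.

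Germinal centers form in the spleen after immunization, and their B cells mutate and select their antibody genes there. Cells in the dark zone, called centroblasts, divide and mutate, and cells in the light zone, called centrocytes, receive antigen and T cell help and are selected. CB and CC are not written out in the labels, though centrocytes are named in the study's title. The 6 genes have unrelated textbook roles: a cytokine subunit (Ebi3), a membrane protease that acts on Wnt ligands (Trabd2b), scaffolds best known from synapses (Ppfia4 and Shank1), an interferon-induced membrane protein (Plscr1) and a transcription cofactor of blood cells (Lmo2). LMO2 is also a known protein marker of germinal center B cells.

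RNA was sequenced from C57BL/6 mice of 8 to 10 weeks, on day 10 after immunization, from cells enriched with magnetic beads for the lectin PNA. The genotypes were Pbrm1+/+, called WT, and Pbrm1-/-, called HOMO. Pbrm1 encodes a bromodomain subunit of the PBAF chromatin remodelling complex. WT gave 3 libraries of each fraction and HOMO gave 2 of each, 10 in all, with the HOMO libraries numbered 2 and 3 as in the count table. The labels leave out how Pbrm1 was altered, the antigen, how CB and CC were separated, and whether libraries came from single or pooled mice, so p-values measure only the spread between these libraries. The column names of the counts carry the letters AID in both genotypes, which the labels do not explain. Levels below are CPM, read counts divided by library size after scaling with TMM factors, and errors are SDs.

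Pbrm1 itself, the check of the labels, lay between 309 and 319 CPM in WT CB and was 178 and 164 CPM in HOMO CB. In CC it lay between 239 and 250 CPM in WT and was 152 and 150 CPM in HOMO. Its mean over both fractions was lower in HOMO (log2 change -0.78, SE 0.06, edgeR adjusted p = 7.7e-04), and reads of the gene remained in every HOMO library. Total counts ran from 9954006 to 67625110 per library. Of the 18 light zone markers 16 rose in CC in WT and 13 in HOMO, and of the 14 dark zone markers 14 fell in WT and 13 in HOMO, by edgeR at an adjusted p under 0.05. Across all genes tested 11.6% rose and 12.3% fell in CC in WT (23.9% in all), and 2.46% rose and 2.98% fell in HOMO (5.45% in all), by the same test. The gene lists below are to be read against these shares. Germinal center markers were present in every library, for example Bcl6 at 357 to 582 CPM. The WT libraries stood apart from each other in 2 ways that touch the results below. The sum of the 22 macrophage genes was 1753 CPM in WT CC library 1 and 660 CPM in WT CC library 2, against 252 to 416 CPM elsewhere. Xist was at 467 and 708 CPM in WT number 1 and 72.5 and 84.5 CPM in WT number 2, against 2022 to 2884 CPM in WT number 3 and HOMO. Ddx3y, a gene of the Y chromosome, was at 79.6 to 104 CPM in WT numbers 1 and 2, against 35.2 to 51.1 CPM in WT number 3 and HOMO. These sex-linked levels thus differ partly along genotype, and the part of sex in the genotype values was not tested.

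Promoter windows of 300 bases, from 250 before to 50 after the annotated start, were found in the RefSeq table (GRCm38.p6) for 3 of the 6 genes: Ebi3, Plscr1 and Ppfia4. They are shown because these genes were low in CB and higher in CC, and the capitals mark matches to 3 motifs of factors known from the light zone, from interferon signalling and from low oxygen. The motifs were chosen with the sequences in view. The window of Ebi3 lies at chr17:55952373-55952672 on the plus strand, that of Plscr1 at chr9:92249944-92250243 on the plus strand, and the upstream window of Ppfia4 at chr1:134344667-134344966 on the minus strand.
Ebi3: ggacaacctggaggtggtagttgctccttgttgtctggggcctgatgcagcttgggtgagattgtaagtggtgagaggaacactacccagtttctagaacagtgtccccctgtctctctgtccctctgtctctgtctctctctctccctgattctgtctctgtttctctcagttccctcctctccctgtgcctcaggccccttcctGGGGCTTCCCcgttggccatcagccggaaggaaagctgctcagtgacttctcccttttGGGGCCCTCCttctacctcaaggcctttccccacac
Plscr1: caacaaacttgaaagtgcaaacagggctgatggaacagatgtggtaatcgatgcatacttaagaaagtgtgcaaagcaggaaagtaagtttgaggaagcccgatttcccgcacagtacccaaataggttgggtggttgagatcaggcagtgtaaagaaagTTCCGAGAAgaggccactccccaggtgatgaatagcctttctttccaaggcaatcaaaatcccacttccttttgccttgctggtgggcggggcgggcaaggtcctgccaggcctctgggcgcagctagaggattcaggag
Ppfia4: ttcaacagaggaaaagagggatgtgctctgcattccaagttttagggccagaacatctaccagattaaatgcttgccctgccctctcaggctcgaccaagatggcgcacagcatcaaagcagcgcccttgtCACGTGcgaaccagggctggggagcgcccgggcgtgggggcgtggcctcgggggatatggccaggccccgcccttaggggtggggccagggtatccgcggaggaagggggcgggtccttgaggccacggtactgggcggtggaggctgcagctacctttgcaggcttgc

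In Ebi3 the capitals mark the NF-kB consensus, found on both strands at 44 bases before the start (position -44) and again on the plus strand at position 14 after it. This motif stood in 8.46% of all 32851 windows of the same length. In Plscr1 they mark TTCNNNGAA, the sequence known as GAS to which STAT factors bind, at position -90, which stood in 8.30% of windows. In Ppfia4 they mark CACGTG, a single stretch that reads the same on both strands. It therefore matches ACGTG, the core to which hypoxia-inducible factors bind, once on each strand, at positions -119 and -118. That core, searched on both strands, stood in 19.6% of windows. This Ppfia4 start site lies 11788 bases upstream of the gene model of the count table. The other Ppfia4 window, at the start of that model, held no match to any motif searched. The Plscr1 start site lies 444 bases inside the gene model of Plscr1, and its whole window lies within that model. For Ebi3 the start site lies 17 bases upstream of the gene model. GAAANNGAAA, the interferon-stimulated response element (3.44% of windows), and TGGGAA, the core to which RBPJ binds (25.6% of windows), were also searched on both strands and were not in these 4 windows. The matches describe the letters only.

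Ebi3 (chr17:55952640-55957022, plus strand, mm10) encodes the beta subunit shared by the cytokines IL-27 and IL-35. In WT it was at 3.03, 3.99 and 2.88 CPM in CB libraries 1, 2 and 3 and at 9.37, 13.9 and 10.0 CPM in CC libraries 1, 2 and 3. In HOMO it was at 1.32 and 2.15 CPM in CB and at 8.06 and 10.5 CPM in CC. Every CC library was above every CB library, and HOMO CB was lowest. The means were 3.30 ± 0.60 CPM (n = 3) and 11.1 ± 2.46 CPM (n = 3) in WT CB and CC. In HOMO they were 1.73 ± 0.59 CPM (n = 2) and 9.29 ± 1.75 CPM (n = 2). These levels rest on 36 to 269 reads per library.

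The log2 difference of Ebi3 between CC and CB was 1.75 (SE 0.25) in WT and 2.39 (SE 0.32) in HOMO. Of the other genes of the IL-12 family and its receptors, 5 of 9 were tested; 2 rose in CC in WT, 1 rose in HOMO, and none fell. Il27ra, the specific chain of the IL-27 receptor, rose from 3.28 to 12.8 CPM in WT (log2 change 1.95, SE 0.22, edgeR adjusted p = 2.2e-04). In HOMO Il27ra rose from 2.29 to 9.39 CPM (log2 change 2.04, SE 0.28, edgeR adjusted p = 0.0020). Il6st, the shared signalling chain of that receptor, rose in WT from 8.88 to 15.8 CPM (edgeR adjusted p = 0.042). The partners that make a complete cytokine with Ebi3 did not pass: Il27 was at or under 0.48 CPM in the mean of every group, and Il12a was between 2.22 and 3.26 CPM.

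Trabd2b (chr4:114406724-114615098, plus strand, mm10) encodes a membrane metalloprotease, also named TIKI2, that cleaves and inactivates Wnt ligands. In WT it was at 1.46, 1.89 and 1.95 CPM in CB libraries 1, 2 and 3 and at 10.6, 10.1 and 9.06 CPM in CC. In HOMO it was at 2.42 and 2.19 CPM in CB and at 13.4 and 12.2 CPM in CC. The fractions were far apart, the spread within each group was small, and HOMO lay above WT in both fractions. The log2 difference between CC and CB was 2.48 in each genotype (SE 0.19 in WT and 0.24 in HOMO).

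Of the 24 other genes of Wnt ligand control and Wnt response, 14 were tested. In CC against CB 6 rose and 1 fell in WT, 1 rose in HOMO, and the median log2 change was 0.81 in WT and 0.56 in HOMO, against 0.01 and -0.01 over all genes tested. Wnt10a, a Wnt ligand, rose in WT from 0.94 to 3.03 CPM (edgeR adjusted p = 0.016) and was at 0.89 and 3.04 CPM in HOMO (edgeR adjusted p = 0.074). Ctnnb1, which encodes beta-catenin, fell in WT from 283 to 199 CPM (log2 change -0.51, SE 0.10, edgeR adjusted p = 0.0039). Tcf7l2, a transcription factor of the pathway, had the highest log2 change of the list in WT, 4.31 (SE 0.91, edgeR adjusted p = 0.0099), at 26.6, 9.01 and 1.54 CPM in CC libraries 1, 2 and 3. Lrp5, a Wnt co-receptor, was at 12.5, 3.73 and 1.40 CPM in the same libraries. Both have the order of the macrophage sums there, and their part in these changes was not tested.

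Ppfia4 (chr1:134296783-134332928, minus strand, mm10) encodes liprin alpha 4, a scaffold that binds receptor tyrosine phosphatases of the LAR type and organizes presynaptic sites. In WT it was at 1.22, 0.96 and 0.64 CPM in CB libraries 1, 2 and 3 and at 9.73, 6.63 and 4.28 CPM in CC. In HOMO it was at 1.06 and 0.89 CPM in CB and at 7.02 and 6.55 CPM in CC. CB held 28 to 61 reads of the gene per library, so the lower level carries the larger counting error. WT CC library 1 was the highest and WT CC library 3 the lowest of the CC libraries.

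The log2 difference of Ppfia4 was 2.90 (SE 0.35) in WT and 2.80 (SE 0.43) in HOMO. Without WT CC libraries 1 and 2, which held the most macrophage transcripts, it was 2.22 in WT. Of 8 tested genes of the liprins and their partners (14 in the list), 4 rose and none fell in CC in WT, and 1 rose in HOMO. Ptprs, a phosphatase of the LAR type, rose from 17.6 to 48.7 CPM in WT (log2 change 1.47, SE 0.14, edgeR adjusted p = 6.8e-05). In HOMO Ptprs rose from 22.4 to 48.9 CPM (log2 change 1.13, SE 0.17, edgeR adjusted p = 0.0029). Ppfibp2, a liprin of the beta type, rose in WT from 7.09 to 13.98 CPM and Ppfia1, a liprin of the alpha type, rose from 88.4 to 115 CPM.

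The hypoxia response is the pathway whose factors bind the ACGTG core. Of its 19 tested genes (22 in the list), 4 rose and 2 fell in CC in WT and 1 rose in HOMO, with medians of 0.17 in both genotypes. Pfkfb3, an activator of glycolysis, rose from 39.0 to 58.9 CPM in WT and from 36.8 to 49.1 CPM in HOMO (edgeR adjusted p = 7.1e-04 and 0.039). Bnip3l, a mitophagy receptor, fell in WT from 34.8 to 19.1 CPM.

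Shank1 (chr7:44310253-44360572, plus strand, mm10) encodes a scaffold of the postsynaptic density that joins receptors to the actin cytoskeleton. In WT it was at 10.0, 17.1 and 17.5 CPM in CB libraries 1, 2 and 3 and at 93.2, 171 and 92.5 CPM in CC. In HOMO it was at 11.6 and 11.4 CPM in CB and at 75.2 and 73.2 CPM in CC. WT CC library 2 stood far above the other CC libraries, and both HOMO CC libraries lay below all WT CC libraries. The log2 difference between CC and CB was 2.99 (SE 0.28) in WT and 2.69 (SE 0.34) in HOMO.

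Its levels rest on 254 to 3308 reads per library. Of 8 tested genes of the Shank scaffolds and their partners (13 in the list), 2 rose and none fell in CC in WT and none passed in HOMO. Dlgap2, which encodes a protein that binds Shank scaffolds, rose in WT from 2.21 to 4.94 CPM (log2 change 1.15, SE 0.24, edgeR adjusted p = 0.0067). In HOMO Dlgap2 was at 4.18 and 6.63 CPM (log2 change 0.67, edgeR adjusted p = 0.23). Arhgef7, an exchange factor known to bind Shank proteins, rose in WT from 57.5 to 72.9 CPM.

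Plscr1 (chr9:92249750-92272278, plus strand, mm10) encodes phospholipid scramblase 1, a membrane protein induced by interferons. In WT it was at 2.09, 2.16 and 3.08 CPM in CB libraries 1, 2 and 3 and at 5.87, 7.82 and 7.44 CPM in CC. In HOMO it was at 1.10 and 1.05 CPM in CB and at 5.68 and 4.65 CPM in CC. CC was above CB in both genotypes, and HOMO lay below WT without overlap in both fractions. The log2 difference between CC and CB was 1.51 (SE 0.24) in WT and 2.26 (SE 0.32) in HOMO, from 30 to 198 reads per library.

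Of 24 tested interferon response genes, 4 rose and none fell in CC in WT, none passed in HOMO, and the medians were 0.39 and 0.23. The 4 were low: Mx1, an antiviral GTPase, was at 3.08, 0.62 and 2.25 CPM in WT CC and at 0.24 to 0.83 CPM in WT CB. Ifit3, Oas2 and Rsad2 likewise had their highest WT CC value in library 1 and their lowest in library 2. Of 10 tested genes of the scramblases and flippases (15 in the list), 2 rose and 2 fell in CC in WT and none passed in HOMO. Atp11a, a flippase, rose in WT from 69.7 to 115 CPM, and Tmem30a, the partner chain of flippases, fell from 62.5 to 44.0 CPM (edgeR adjusted p = 0.0035 and 0.038).

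Lmo2 (chr2:103957986-103981878, plus strand, mm10) encodes an adaptor that bridges LDB1 and DNA-binding factors of the E protein and GATA families. In WT it was at 40.6, 40.5 and 29.6 CPM in CB libraries 1, 2 and 3 and at 107, 95.6 and 66.3 CPM in CC. In HOMO it was at 32.8 and 28.8 CPM in CB and at 79.6 and 70.3 CPM in CC. Its libraries separated by fraction in both genotypes, with WT number 3 lowest among WT in each. The log2 difference between CC and CB was 1.28 (SE 0.18) in WT and 1.29 (SE 0.22) in HOMO, the smallest of the 6 in each genotype, from 741 to 2601 reads per library.

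Of 13 tested genes of the Lmo2 complex and family (18 in the list), none rose and 1 fell, in both genotypes. That gene was Lmo4, a relative of Lmo2 that also binds LDB1. It fell from 88.3 to 26.3 CPM in WT (log2 change -1.76, SE 0.17, edgeR adjusted p = 8.7e-05) and from 79.4 to 27.7 CPM in HOMO (log2 change -1.51, SE 0.21, edgeR adjusted p = 0.0022). The levels of Lmo2 and Lmo4 thus differed in opposite directions between the fractions. The partners Ldb1 (117 and 133 CPM in WT CB and CC) and Lyl1 (113 and 141 CPM) did not pass the test.

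**Figure D1:**
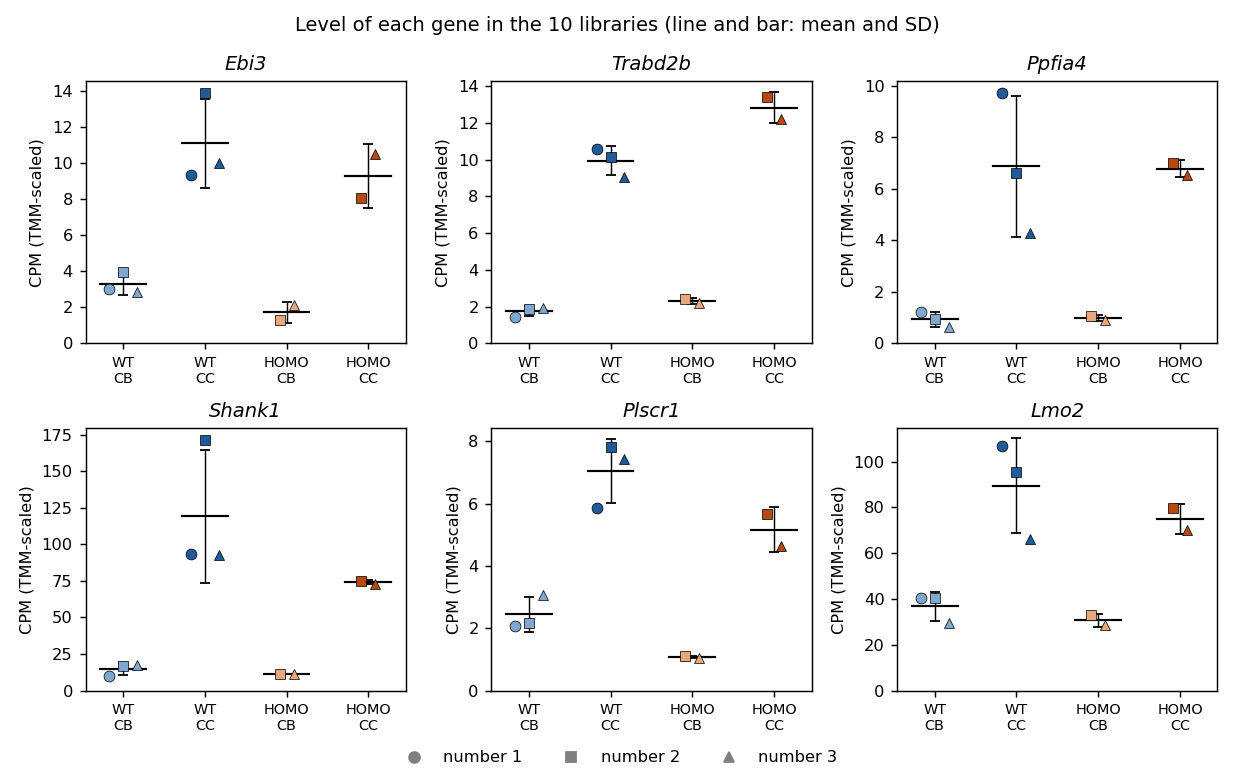
Level of each of the 6 genes in CPM (y axis, a scale of its own in each panel, from 0) in the 4 groups, 1 point per library with the number given by its shape; the line and bar are the mean and SD (n = 3 for WT, n = 2 for HOMO). In every panel all 5 CC libraries lie above all 5 CB libraries, as the choice of the genes led to.

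For all 6 genes every CC library was above every CB library, which held for 8.46% of the genes tested; this follows from the choice of the genes. A log2 difference of at least 1 in both genotypes, which all 6 also had, was found for 4.67% of the genes tested. Among all 16596 genes tested the differences ranked from 328 (Shank1) to 1104 (Lmo2) in WT and from 125 (Ppfia4) to 749 (Lmo2) in HOMO. The ranks that follow are among genes with at least 5 CPM in CC, where these 6 were chosen to be high. Among the 9877 genes with at least 5 CPM in WT CC the differences ranked from 84 (Shank1) to 266 (Lmo2). Among the 9784 genes with at least 5 CPM in HOMO CC they ranked 4 (Ppfia4), 6 (Shank1), 8 (Trabd2b), 11 (Ebi3), 12 (Plscr1) and 93 (Lmo2). The ranks come from separate orders and are not a comparison of the genotypes.

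The WT difference was seen within each WT number, as the choice of the genes led to. For Ebi3 CC was 3.09, 3.50 and 3.49 times CB in WT numbers 1, 2 and 3. For Shank1 it was 9.31, 10.0 and 5.28 times, and for Lmo2 it was 2.63, 2.36 and 2.24 times. For Trabd2b it was 7.27, 5.37 and 4.65 times, for Ppfia4 7.97, 6.89 and 6.71 times and for Plscr1 2.81, 3.61 and 2.41 times. HOMO minus WT, the difference between genotypes in the log2 rise was 0.64 (SE 0.41) for Ebi3 and 0.75 (SE 0.40) for Plscr1, and between -0.30 and 0.00 for the other 4. No test is given, since the rises chose the genes.

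**Figure D2:**
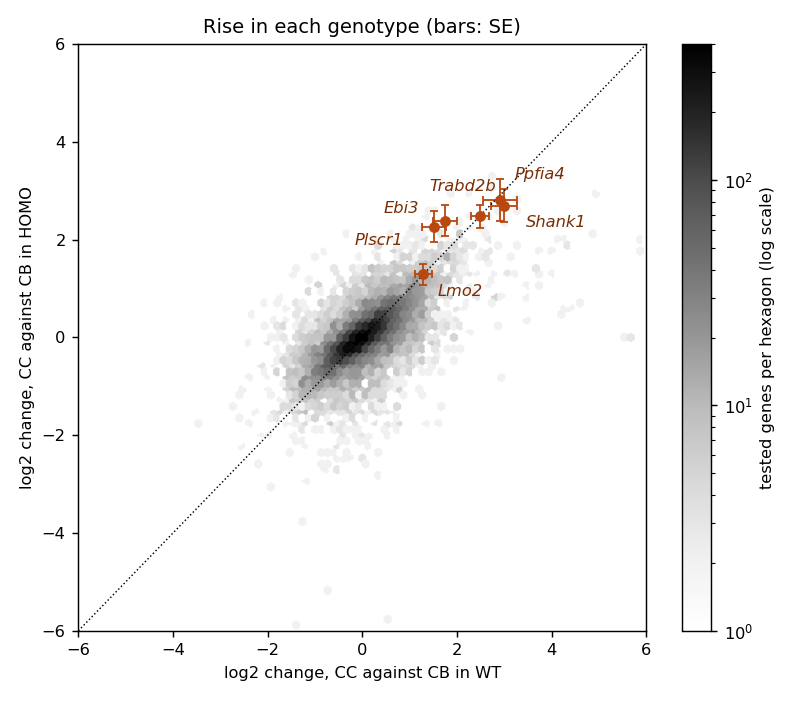
Log2 change from CB to CC in WT (x axis) and in HOMO (y axis); grey hexagons count the 16596 genes tested on a log scale, red points are the 6 genes with SE bars, and the dotted line marks equal changes. Trabd2b (2.48 in both) and Lmo2 (1.28 and 1.29) lie on the line, and Ebi3 and Plscr1 lie above it.

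Levels can be compared between genes only per length, as RPKM, which divides CPM by the gene's length. In WT CC Lmo2 was highest, at 41.4 ± 9.67 RPKM, followed by Shank1 at 11.3 ± 4.31 and Ebi3 at 9.63 ± 2.13 RPKM, which overlapped in their spread. Plscr1 followed at 2.86 ± 0.42 RPKM, then Trabd2b at 1.501 ± 0.12 and Ppfia4 at 1.05 ± 0.42 RPKM (n = 3 each), of which the last pair differed by less than their summed spread. Lmo2 was above 94.7% of the genes tested per length there, and Ppfia4 above 27.7%. In WT CB Lmo2 was again highest, at 17.04 ± 2.92 RPKM, Ebi3 (2.86 ± 0.52 RPKM) was above Shank1 (1.41 ± 0.40 RPKM), and Ppfia4 was lowest, at 0.14 ± 0.04 RPKM.

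Macrophage transcripts were set beside the 6 genes because they separate the WT CC libraries. The 6 genes were picked as not following these transcripts, so the values here and in the next paragraph describe that choice and do not test it. Apoe, which was high in all libraries (212 to 399 CPM), made up most of the sum elsewhere. The sum of the other 21 genes was 1397, 352 and 79.5 CPM in libraries 1, 2 and 3 of WT CC, 44.4 and 41.0 CPM in HOMO CC and 16.5 to 31.9 CPM in CB. At most 3 of the 22 genes were at 0 in a library. The sum of the 21 genes was thus lower in HOMO CC than in every WT CC library, and above CB. Gene by gene, the median log2 change of the 22 genes from CB to CC was 5.68 in WT, where 17 rose. In HOMO it was 2.09, where none passed the test, which lies between the changes of Lmo2 (1.29) and Plscr1 (2.26) there. The lowest HOMO CC value over the highest of all CB values was 5.36 for Ppfia4, 5.06 for Trabd2b, 4.17 for Shank1, 2.02 for Ebi3, 1.73 for Lmo2 and 1.51 for Plscr1.

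Between WT CC libraries 1 and 3, in which the 21 macrophage genes other than Apoe summed to 1397 and 79.5 CPM, Ebi3, Trabd2b, Shank1 and Plscr1 had ratios of 0.79 to 1.17. Ppfia4 had a ratio of 2.27 and Lmo2 of 1.61, and both have the order of the macrophage sums within WT CC. Trabd2b has that order too, with a smaller spread (10.6, 10.1 and 9.06 CPM). The part of macrophages in those WT values was not tested. For erythroid and megakaryocyte genes the sum was 62.8 CPM in the first WT CC library, 15.5 CPM in the second and between 2.05 and 4.61 CPM elsewhere, and their part was not tested. The T cell genes other than Lck summed to 1.06 to 8.39 CPM in CB and to 1.35 to 15.2 CPM in CC, higher in CC within each WT number. The 11 T cell genes tested had median log2 changes from CB to CC of 0.82 in WT and 1.11 in HOMO. Of them 1 rose in each genotype, and their part was not tested. Genes of follicular dendritic and stromal cells other than Cr2 summed to 2.07 to 6.94 CPM. Dendritic cell genes other than Flt3 summed to 4.08 to 8.00 CPM in CB and to 11.96 to 23.99 CPM in CC, so they moved with the fraction, and their part was not tested. In bulk samples fewer cells of a type and less RNA per cell cannot be told apart.

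**Figure D3:**
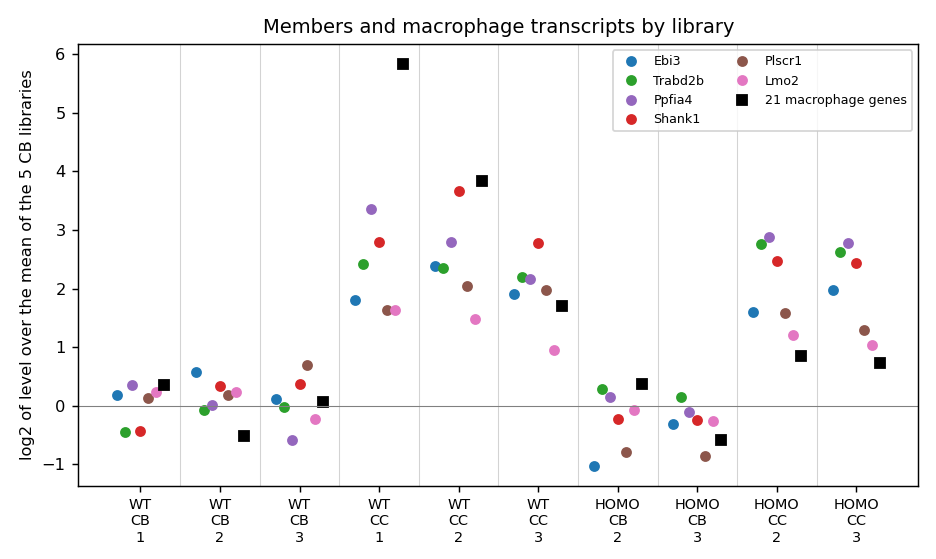
Log2 of the level over the mean of the 5 CB libraries (y axis) in each of the 10 libraries (x axis); circles are the 6 genes and black squares the sum of 21 macrophage genes without Apoe. The squares spread widely over the WT CC libraries (1397, 352 and 79.5 CPM) and are lower in HOMO CC (44.4 and 41.0 CPM), though above all CB libraries. Each of the 6 genes is above its highest CB value in HOMO CC, as the choice of the genes led to.

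HOMO and WT were compared in each fraction and over the mean of both, across all 16596 genes. In CB 0 of the 6 genes passed edgeR's test at an adjusted p under 0.05, and 0.0241% of the genes tested did. In CC none of the 6 passed, and 0% of the genes tested did. Without adjustment 2 of the 6 had a p under 0.05 in CB and 1 in CC, against 2079 and 3142 of all genes tested, and DESeq2 called 1 and 0 of the 6 against 277 and 816 of all genes. Over the mean of both fractions 1 of the 6 passed, while 5.25% of all genes did and 2.62% were lower. That share moved widely: from 872 genes it ranged between 3 and 3630 when 1 library was left out.

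Plscr1 was the gene that passed: it was lower in HOMO over the mean of both fractions (log2 change -0.82, SE 0.20, edgeR adjusted p = 0.041). The test counts CB and CC libraries as independent. In limma-voom the adjusted p was 0.052 with no block (log2 change -0.82) and 0.066 with the WT number as a block (log2 change -0.83), so the call was lost in that tool either way. It was kept without WT CB library 3 or WT CC library 3. It was lost without any 1 of the other 8 libraries (WT CB 1 and 2, WT CC 1 and 2, and each of the HOMO libraries), with edgeR adjusted p between 0.055 and 0.18. The log2 change stayed between -1.02 and -0.66 in all 22 alternatives, of which 8 kept the call. Without WT numbers 1 and 2, the libraries low in Xist, it was -1.02 (edgeR adjusted p = 0.0082). It was -0.66 when WT number 3 was left out (edgeR adjusted p = 0.014). Over all genes tested, 914 to 6712 passed in the 8 alternatives that kept the call and 3 to 892 in the 14 that lost it. The main fit gave 872. The call of Plscr1 was thus kept in the alternatives in which more genes passed.

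In CB alone the log2 difference of Plscr1 was -1.19 (SE 0.29, edgeR adjusted p = 0.20) and in CC it was -0.44 (SE 0.27, edgeR adjusted p = 0.40). The log2 difference of Ebi3 was -0.90 (SE 0.29, edgeR adjusted p = 0.29) in CB, where HOMO and WT libraries did not overlap, and -0.26 (SE 0.28) in CC, where they did. Neutrophil genes summed to 162 and 143 CPM in the HOMO libraries numbered 2, against 0.24 to 22.0 CPM elsewhere, and their part in the genotype values was not tested. The mean of Ebi3 over both was -0.58 (SE 0.20, edgeR adjusted p = 0.10).

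Shank1 was lower in both HOMO CC libraries than in all WT CC libraries, a log2 difference of -0.68 (SE 0.30, edgeR adjusted p = 0.25). Over both fractions it was -0.53 (SE 0.21, edgeR adjusted p = 0.15). Trabd2b was the only 1 of the 6 genes above WT without overlap in both fractions, with a log2 change of 0.37 in CB (SE 0.21), in CC (SE 0.20) and over both (SE 0.15, edgeR adjusted p = 0.14). Lmo2 had log2 changes of -0.26 (SE 0.20) in each fraction. Ppfia4 was close to equal, at 0.07 (SE 0.39) in CB and -0.03 (SE 0.36) in CC.

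In CB 2 of the 6 genes (Ebi3 and Plscr1) were lower in HOMO without overlap, as were 16.4% of the genes tested, and 1 (Trabd2b) was higher, as were 18.8%. In CC 2 (Shank1 and Plscr1) were lower, as were 17.4%, and 1 (Trabd2b) was higher, as were 17.7%. The counts of the 6 genes lie near these shares.

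**Figure D4:**
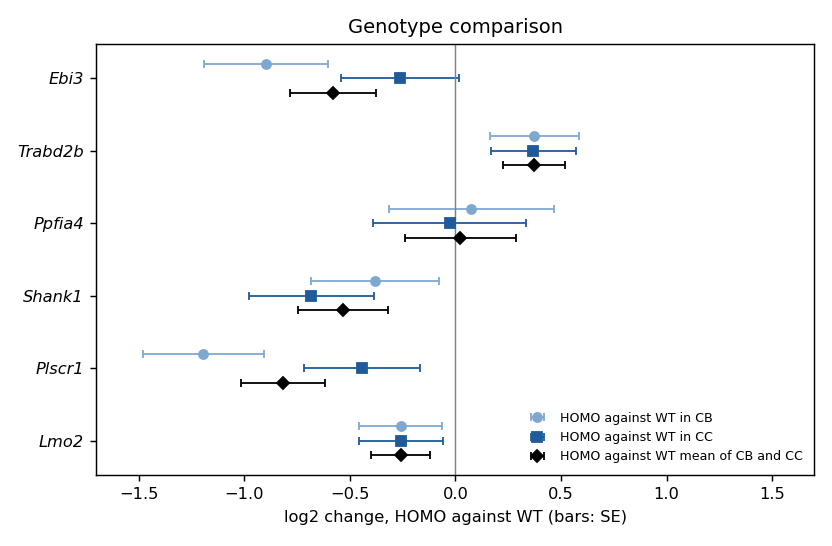
Log2 change of HOMO against WT (x axis, bars are SEs) for each of the 6 genes (y axis) in CB, in CC and over the mean of both. Plscr1 has the lowest mean (-0.82), Trabd2b lies above 0 in all 3 comparisons (0.37) and Ppfia4 near 0.

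The genes with the most similar profiles were found by the mean absolute difference in log2(CPM + 0.5) over the 10 libraries, with each profile centred, among 10557 genes. The added 0.5 flattens genes near 1 CPM, so that Trabd2b, Ppfia4 and Plscr1 appear less steep than their CPM. Ebi3 was closest to Fgd2 (0.23) and Il27ra (0.23), and Plscr1 to Ikbke (0.17), Phf11a (0.18) and Il27ra (0.18). Ikbke encodes a kinase of interferon and NF-kB signalling. Fgd2, Il27ra and Snn were among the 5 closest to both Ebi3 and Plscr1, and all 3 had lower mean levels in HOMO than in WT in both fractions. The HOMO libraries were part of the matching, and Ebi3 and Plscr1 were themselves lower there, so this shared direction follows from the matching.

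Trabd2b and Ppfia4 were each among the 5 closest to the other (0.26), and both shared Grm6, a glutamate receptor gene, and Cfp, which encodes properdin, among the 5. Shank1 was closest to Tnfrsf8 (0.27), which encodes CD30, then to Ffar2 (0.32), a receptor of short fatty acids, and Il4i1 (0.34), an amino acid oxidase. Lmo2 had the closest neighbours of all: S1pr3 (0.08), a sphingosine phosphate receptor, and Ifi30 (0.10), a lysosomal reductase. Its difference to the other 5 of the set was 0.35 to 0.78.

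**Figure D5:**
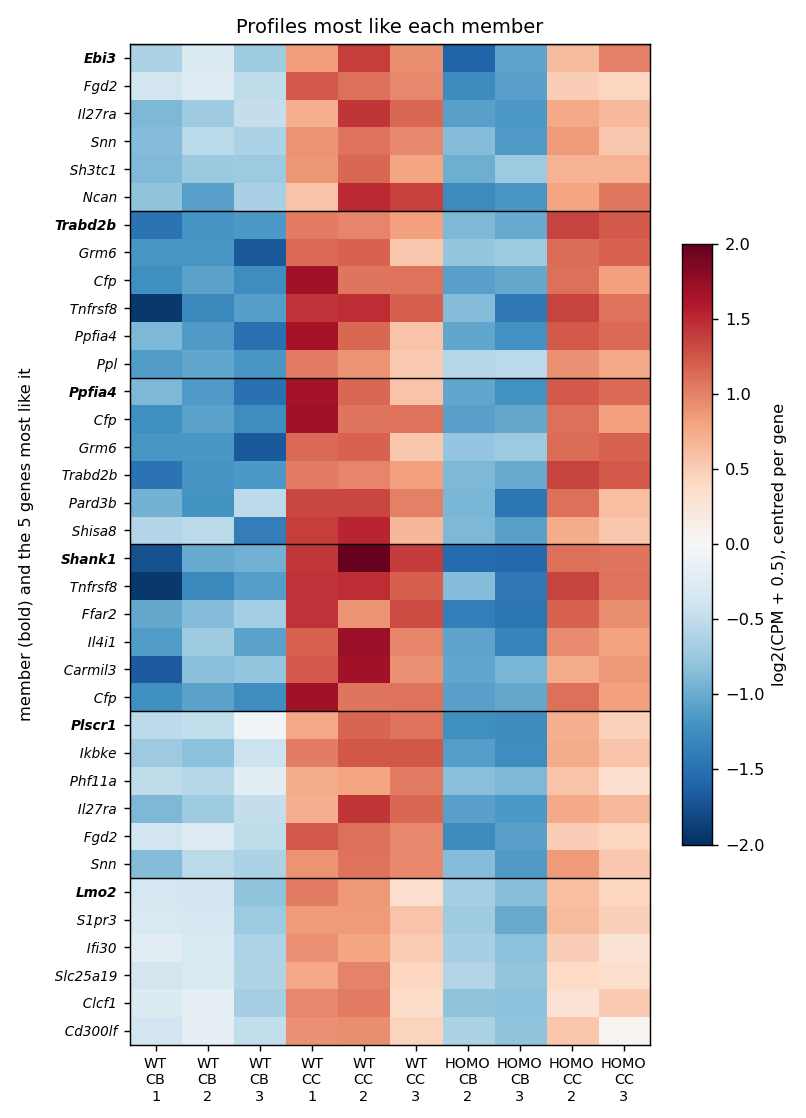
Centred log2(CPM + 0.5) (colour) in the 10 libraries (columns) for each of the 6 genes (bold) and the 5 genes closest to it. The CC columns are red in all rows, and rows differ mainly in how steep the step is and in WT CC library 2, which is darkest for Shank1.

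The nearest tested protein-coding genes within 200 kb on each side numbered 8, with none for Trabd2b and Plscr1; 0 rose and 2 fell in CC in WT, and none passed in HOMO. Beside Lmo2, Caprin1 fell from 599.8 to 481 CPM (log2 change -0.32, SE 0.08, edgeR adjusted p = 0.018) and Fbxo3 from 74.9 to 53.4 CPM (log2 change -0.49, SE 0.09, edgeR adjusted p = 0.0033) in WT. The other 6 were Zfp119b and Yju2 beside Ebi3, Chil1 and Tmem183a beside Ppfia4, and Clec11a and Josd2 beside Shank1. Yju2 was lower in HOMO over both fractions (edgeR adjusted p = 0.040).

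Reads of overlapping genes cannot be told apart where strand was not used in the counting, and the sources used here do not name the strand setting. The antisense gene Gm16712 at Ebi3 had mean levels of 0.73 to 1.02 CPM. Those at Shank1, Gm44757 and 1700008O03Rik, and 4931422A03Rik at Lmo2 had at most 0.42 CPM, and Mir6386 at Plscr1 had 0 in every library.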

How the data were processed

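RNA-seq counts from 10 libraries were used. Per the labels' protocols, RNA came from a micro-scale column kit, ribosomal RNA was depleted and the KAPA HyperPrep kit was used. The authors deposited raw read counts for each gene as whole numbers; the submitters' processing notes name mm10, STAR, featureCounts of Subread, FastQC and R 4.2.1. For strand setting, annotation release and reads with several matches, the sources used here give nothing. Identifiers were matched to GENCODE M21, where 267 of 55421 had no symbol.

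The 6 members, the gene lists and the alternatives were chosen with earlier results of these data known. The counts were analysed in edgeR 4.0.16: low genes were removed by filterByExpr (at least 10 reads, at least 15 in total), libraries were scaled by TMM, and the model was fitted with 4 group means over 10 libraries. The robust quasi-likelihood F-test ran in R 4.3.3, with Benjamini-Hochberg adjustment over the 16596 genes tested and a threshold of 0.05. SEs follow from each log2 change and the F value, and the common biological coefficient of variation was 23.1%. The steps were tested on simulated data. Besides the 6 members and Pbrm1, the text names the 5 genes with the closest profile to each, neighbours within 200 kb and overlapping genes, and up to 4 genes of each list that passed in WT, by smallest p, or else genes with values only. Genes of a list that were named beyond that (Il27, Il12a, Ldb1 and Lyl1) were chosen after their values were seen.

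The HOMO columns are numbered 2 and 3 and the HOMO titles 1 and 2, so HOMO columns were assigned to their group only and not paired. WT libraries with the same number deviated from their group means together (r = 0.384, 0.424 and 0.426 over 8910 genes), against -0.445 to 0.282 for different numbers, so the WT numbers were taken to pair the libraries, from the data and not from a label. Libraries of a group differed beyond sampling noise (chi-square per degree of freedom 4.14 to 80.7). Alternatives were DESeq2 1.42.0, limma 3.58.1 (voom), 2 other scalings, other filters and samples left out.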

Additional observations from a re-analysis of the deposited data

How the results depend on the processing

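The CC against CB log2 changes of the 6 genes kept their direction in all 24 alternatives of each genotype. This follows from the choice of the genes, for which every CC library was above every CB library. The changes ranged in WT from 0.86 (Lmo2) to 3.28 (Shank1) and in HOMO from 1.18 (Lmo2) to 2.92 (Ppfia4). Of these values 4 moved beyond 1 SD, among them Ppfia4 in WT without WT CC libraries 1 and 2, at 2.22. Lmo2 in WT was not counted as moved, though its lowest value of 0.86 compares with 1.28 (SE 0.18) in the main fit. Which genes passed between genotypes depended on the libraries used, and the cause was not tested.

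Genes that passed are given in the order CC against CB in HOMO, CC against CB in WT, HOMO against WT in CB, in CC and over the mean, where they differed by over 1.5 times from 904, 3965, 4, 0 and 872. DESeq2 gave 1662 in HOMO and 277, 816 and 2360 between genotypes. With no filter the counts were 1475 in HOMO and 590, 1314 and 2577 between genotypes. With only the groups compared they were 4452, 2340 and 0 in CB. Upper-quartile scaling gave 1 in CC and the stricter filter 2 in CC. Upper-quartile scaling also moved the share of higher calls in CC against CB from 48.3% to 59.5% in WT and from 45.2% to 58.5% in HOMO. Without both libraries of WT number 1 they were 596, 1010, 0 in CB and 17 over the mean, and without number 2 they were 1243 in WT, 0 in CB and 3 over the mean. Without number 3 they were 3706, 7404, 4895, 5035 and 6712. Without WT CC libraries 1 and 2 they were 1366, 858, 1 in CB and 26 over the mean. Without WT numbers 1 and 2, added with earlier results known, they were 4459, 2421, 671, 652 and 2414. Leaving out 1 library in turn gave 174 to 1586, 2099 to 5315, 0 to 1986, 0 to 2424 and 3 to 3630.

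With the WT number as a fixed replicate block 2295 genes passed in HOMO and 5867 in WT. With a random replicate block in limma-voom (correlation 0.307) 828, 5578, 16 in CB, 0 in CC and 480 over the mean passed, and with no replicate block 797, 3864, 7, 0 and 688. Between genotypes the random block changed no call of the 6 genes in limma-voom, where Plscr1 missed the threshold over the mean with it (adjusted p = 0.066) and without it (0.052). The fixed block could not be estimated between genotypes, and a fit of only the groups compared could not give the mean.

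Of the 6 genes, those that passed between genotypes numbered 0 in CB, 0 in CC and 1 over the mean. DESeq2 called 1 in CB and 3 over the mean (Plscr1, Ebi3 and Shank1), against 277 and 2360 of all 16596 genes. With no filter 1 passed in CC (Shank1) and 2 over the mean (Plscr1 and Shank1), against 1314 and 2577 of 29279 genes. Without both libraries of WT number 3 it was 3 in CB (Ebi3, Plscr1 and Lmo2), 1 in CC (Lmo2) and 4 over the mean (these 3 and Trabd2b). In that setting 4895, 5035 and 6712 of all 16088 genes tested passed, so many genes passed along with the 6. Without WT numbers 1 and 2 it was 2 in CB and 2 over the mean (Shank1 and Plscr1 in both). Over the mean 0 passed without WT number 1, without number 2, without WT CC libraries 1 and 2, with upper-quartile scaling and with limma-voom, with or without the block. Leaving out 1 library gave 0 to 1 in CB, 0 in CC and 0 to 2 over the mean; Lmo2 passed without WT CC library 3 (edgeR adjusted p = 0.038).

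Small genotype changes of Ppfia4 and Lmo2 reversed in sign. With 1 library left out Ppfia4 ranged from -0.17 to 0.30 in CB, -0.26 to 0.31 in CC and -0.10 to 0.19 over the mean. Ppfia4 went from 0.07 to -0.17, -0.03 and -0.15 in CB without WT CB library 3, HOMO CB library 2 and WT number 3. In CC it went from -0.03 to 0.31, 0.0029, 0.0032 and 0.02 without WT CC library 1, HOMO CB library 2 or 3 and HOMO CC library 3, and to 0.31, 0.66 and 0.69 without WT number 1, WT CC libraries 1 and 2 and WT numbers 1 and 2. Over the mean it went from 0.02 to -0.10, -0.09, -0.02 and -0.19 without WT CB library 3, WT CC library 3, HOMO CB library 2 and WT number 3. Lmo2 went from -0.26 to 0.027 in CB, 0.21 in CC and 0.12 over the mean without WT numbers 1 and 2, and to 0.18 in CC without WT CC libraries 1 and 2.

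The HOMO groups hold 2 libraries each, and a group left with 1 library was assumed to vary like the others. Ebi3, Trabd2b, Ppfia4 and Plscr1 in CB rest on 28 to 198 reads per library, which limits what their genotype comparisons can show.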
